A study of Mus musculus with 6 samples.

Results

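Transcripts of 10 genes that mark pluripotent cells and the germline, Dppa2, Dppa4, Dppa3, Dppa5a, Pou5f1, Nanog, Zfp42, Sall4, Lin28a and L1td1, were followed in the lung of mouse embryos shortly before birth. Their probes were taken from a whole-genome oligonucleotide array by the transcript accession that the scanner files give for each probe. Accessions matched 8 of the 10 genes, with 10 probes, out of 18213 named genes and 41174 probes on the array. Dppa5a and Sall4 had 2 probes each and the others 1, each probe being a single spot per array. Nanog and L1td1 had no probe matched through the gene table and were not analysed here. Whole lungs were collected at E18.5 from an intercross of 15-1+/Flox, 15-2+/- parents, where 15-1 is ECAT15-1 (Dppa4) and 15-2 is ECAT15-2 (Dppa2). The 3 wild type lungs came from embryos of genotype 15-1+/+, 15-2+/+. The 3 knockout lungs came from embryos of genotype 15-1Flox/Flox, 15-2-/-, so each carried the floxed Dppa4 alleles beside the deleted Dppa2 alleles. According to the labels, the line derived from 129Sv embryonic stem cells and was then mated to C57/BL6 and to Cre or FLPe transgenic mice whose background is unknown. The labels give neither sex nor litter, so p-values measure the spread between these 6 embryos.

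Pluripotent cells are held in their state by a network around the transcription factors Oct4 (encoded by Pou5f1) and Nanog, with Zfp42 (Rex1) as a widely used marker of the naive state and Sall4 as a zinc finger partner that recruits the NuRD repressor. Dppa2 and Dppa4 are neighbouring genes for small nuclear proteins with a DNA-binding SAP domain, which together open chromatin at cleavage-stage and bivalent genes, and Dppa3 (Stella) protects maternal DNA methylation. Dppa5a encodes a KH-domain RNA-binding protein of embryonic stem cells, and Lin28a blocks maturation of let-7 microRNAs. Most of these genes are silenced as organs form.

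The promoter table held windows for 5 of the 10 genes (L1td1, Lin28a, Nanog, Zfp42 and Pou5f1). The 250 bases before each start were searched for the core of the octamer, the element that Oct4 binds (TTTGCAT, which reads ATGCAAA on the other strand), and 2 of these genes, Zfp42 and Nanog, held it. Both stretches are shown because Zfp42 was detected in all knockout lungs but not in all wild type lungs, and Nanog could not be measured. They run 5′ to 3′ on the gene's strand, from RefSeq on GRCm38.p6, with the octamer core in capitals: Zfp42 from the minus strand of chr8:43307168-43307214, and Nanog from the plus strand of chr6:122707394-122707440.
Zfp42: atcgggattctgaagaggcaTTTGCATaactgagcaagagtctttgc
Nanog: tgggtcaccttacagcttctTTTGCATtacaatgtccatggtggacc
The Zfp42 window held the full octamer (ATTTGCAT, which reads ATGCAAAT on the other strand), which contains the core, and 1.6% of 32851 windows of this length in the table held it. The core, within a full octamer or not, stood in 4.12% of windows. Only the Nanog window of this pair also held ACAATG (which reads CATTGT on the other strand), the core that Sox factors bind, which stood in 10.7% of windows. These matches describe the sequence and say nothing about binding in the lung.

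Each array carried 43379 non-control spots, none saturated, and between 63.3% and 68.8% of probes were well above background, the scanner software's call for a spot clearly brighter than its surroundings. All 10 lung markers examined were well above background on all 6 arrays, and none of them was called changed. An unadjusted limma p under 0.05 was found for 4 of the 10, as for 5105 of all 19855 features. The groups did not overlap for the same 4, as for 31.3% of all features. Among these, Scgb1a1, of airway club cells, differed by -1.73 on the log2 scale (limma adjusted p = 0.0733). Wild types 1 and 2 alone had signal from 4 of 4 Y-linked genes, and the other 4 arrays had Xist, so the groups differed in this respect. Wild types 1 and 2 and knockout 3 shared a slide, wild type 3 was on another, and knockouts 1 and 2 on the last. All 7 heart muscle markers were measured and 4 of them were called lower (Myl4, Myl7, Tnnt2 and Nkx2-5), where 0.604% of all tested features were. The mean log2 level of the 7 by array was 0.27 to 0.47 in wild type and -0.97 to -0.89 in knockout. With slide as a block, which sets only knockout 3 against wild types 1 and 2, these calls were lost. With a term for the Y-linked signal, which leaves wild type 3 as the only wild type, those of Myl4, Myl7 and Tnnt2 were lost. Such fits have little replication, so a lost call cannot be told apart from lost precision. The differences of Myl4, Myl7, Tnnt2 and Nkx2-5 were -1.63, -1.42, -1.82 and -1.71 with slide as a block. As reported they were -1.72, -1.46, -1.42 and -1.73. Their standard errors were 0.19 to 0.23 with slide as a block, against 0.12 to 0.19 as reported. Of the germ cell markers with a probe, 5 of 6 were below background on all arrays, and the other, Ddx4, differed by 0.01 on the log2 scale. In whole-lung RNA, fewer cells of a type and less RNA per cell cannot be told apart.

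In the late fetal lung, 3 of the 8 genes with a probe, Dppa2, Dppa5a and Sall4, were well above background on all 6 arrays. Zfp42 was well above background on 1 of 3 wild type and 3 of 3 knockout arrays. Dppa4, Dppa3, Pou5f1 and Lin28a were not well above background on any array, and neither was the second Sall4 probe. On the processed scale of the scanner, which is intensity after subtraction of background, the lowest value called well above background was between 14.0 and 29.3 by array. The 30 values of the 5 probes that were never detected lay between 2.97 and 10.9, with a median of 4.21, and none of them was above the 99th percentile of the negative control spots of its array.

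**Figure D1:**
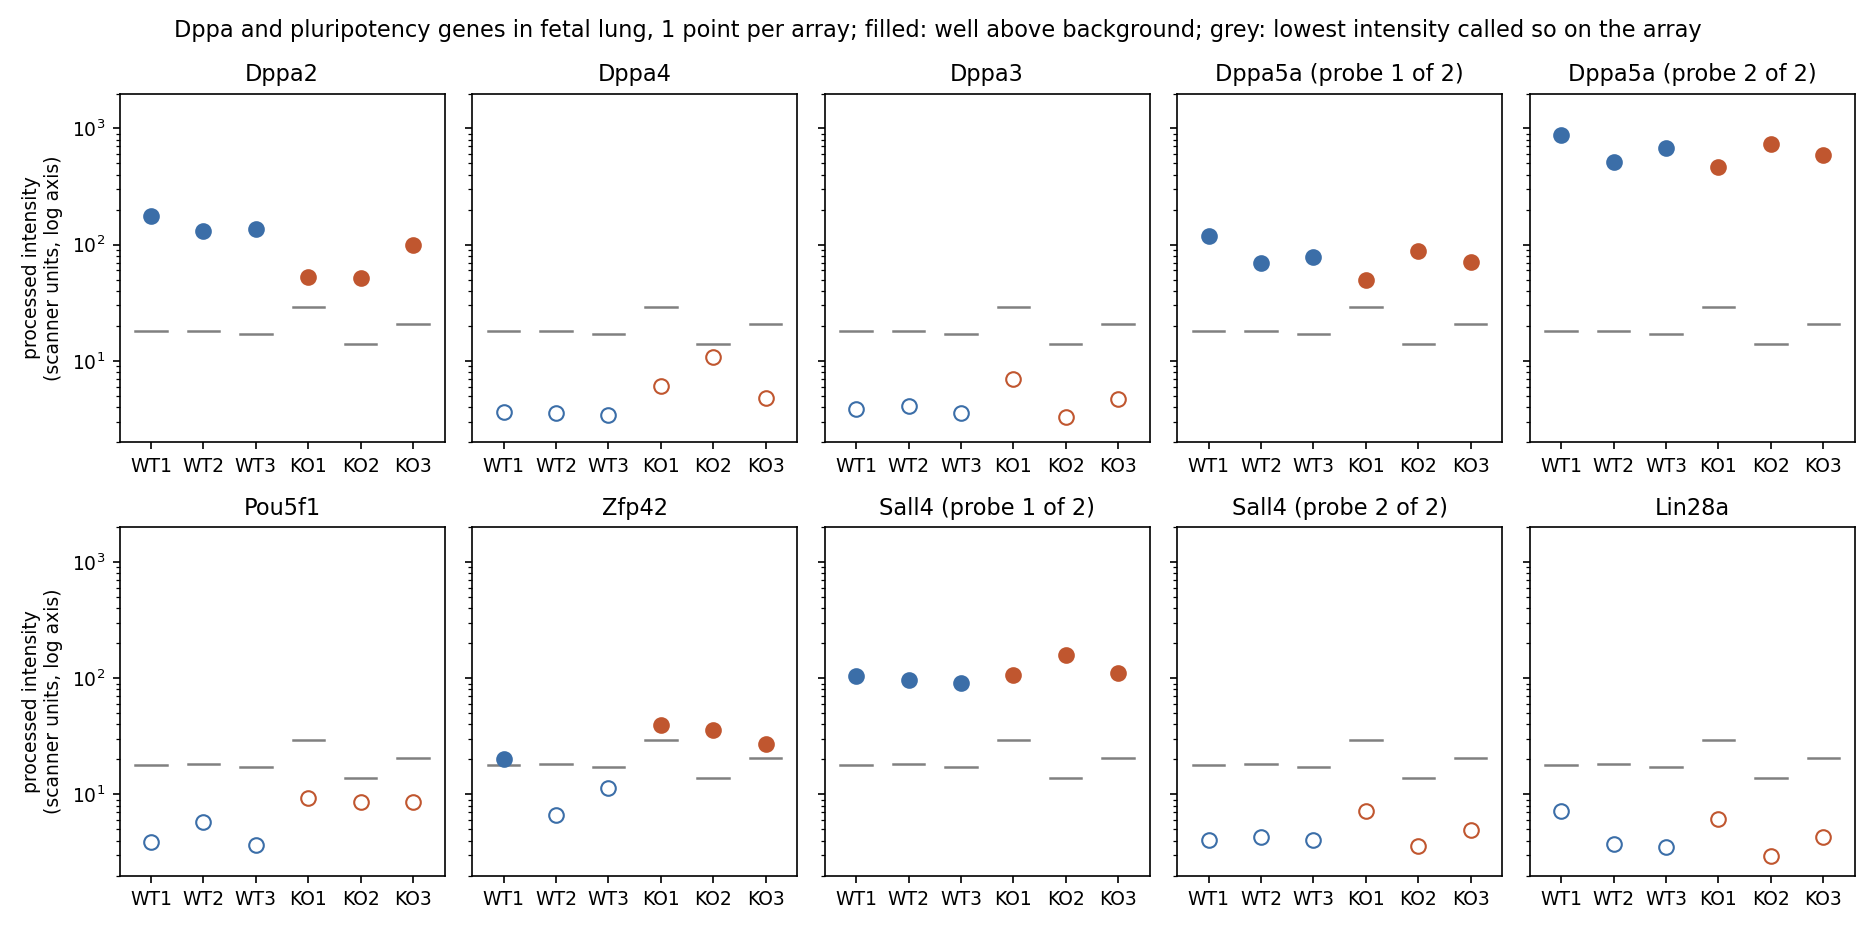
Processed intensity (scanner units, log axis) of each of the 10 probes on the 3 wild type (blue) and 3 knockout (orange) arrays, 1 point per array, filled where the spot was well above background; grey bars mark the lowest such intensity of that array. Dppa2, both Dppa5a probes and the first Sall4 probe are filled on all 6 arrays, Zfp42 on 4, and the other 5 probes on none; levels are to be compared between arrays and not between probes.

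Groups were compared with limma on log2 intensities set relative to each array's 75th percentile, and calls were made at an adjusted p (Benjamini-Hochberg) under 0.05 over 19855 features. Of the 8 genes, 4 passed the filter on dim probes, and 0 of these 4 were called changed by limma, where 1.31% of all tested features were (0.71% higher and 0.604% lower in knockout). Dppa2 and Zfp42 had an unadjusted p under 0.05 in that fit, as did 5105 of all 19855 features. The 3 wild type values did not overlap the 3 knockout values for Dppa2, Zfp42 and Sall4. The same held for 31.3% of all tested features, 17% with the knockout higher and 14.3% with the knockout lower, and Zfp42 passed the filter only through the knockout group, in which it is high.

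Dppa2, the gene targeted in these embryos, read lower on all 3 knockout arrays but stayed well above background on each of them. Its probe (A_52_P16249) had intensities of 176, 132 and 136 in wild types 1, 2 and 3, and of 52.7, 51.3 and 100.1 in knockouts 1, 2 and 3. The groups did not overlap, and knockout 3 was the closest of the knockouts to the wild types. Before background subtraction the same spots read 210, 165 and 168 in wild type and 95, 86 and 136 in knockout, over a local background of 26 to 29. On the log2 scale the wild type level was -3.44 ± 0.18 and the knockout level -4.67 ± 0.51 (SD, n = 3 each). The knockouts thus differed by -1.22 (SE, the standard error, 0.25; 95% interval -1.82 to -0.63). This is 2.33-fold lower (interval 1.54-fold to 3.53-fold) and missed the threshold (limma adjusted p = 0.0602), with 2.08% of the 13929 named genes tested having a smaller p.

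The knockout signal of Dppa2 was 1.80, 3.68 and 4.85 times the detection limit (the lowest intensity with that call) of knockout arrays 1, 2 and 3, against 7.30 to 9.75 times in wild type. Its position relative to the deleted stretch is unknown here, which leaves its signal no check of the labels. On the slide that held both groups, knockout 3 differed from the mean of wild types 1 and 2 by -0.69. The fit with slide as a block rests on this comparison, with knockout 3 as its only knockout, and Dppa2 did not pass in it. Without knockout 3 the difference was -1.52 and passed (limma adjusted p = 0.0154), and without wild type 3 it was -1.28 and passed narrowly (adjusted p = 0.0496). With a term for the arrays that had Y-linked signal, Dppa2 differed by -1.10. That term takes up wild types 1 and 2 and leaves only wild type 3 to set against the knockouts.

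Dppa4, the partner of Dppa2, was floxed in the knockouts and below background in both groups. Its probe (A_51_P346600) read 3.63, 3.58 and 3.45 in wild type and 6.06, 10.9 and 4.84 in knockout. The knockout values were all above the wild type values, the highest being knockout 2, but each was below its array's lowest detected intensity, at 0.21 to 0.78 times that value. The weaker of the scanner's calls (positive and significant) was met on knockouts 2 and 3 and on no wild type array. Among the 11394 other probes that were below background on all 6 arrays, 9.04% had all knockout values above all wild type values and 1.1% the reverse. The weaker call was met by 32.8% of them on knockout 2 and by 25.9% on knockout 3. The median intensity of those dim probes was 4.02, 4.26 and 3.87 in wild type and 7.12, 3.50 and 4.90 in knockout, so knockout array 1 had a higher floor than the others. No fold is given for Dppa4, since neither group was well above background on any array.

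Dppa3, the maternal factor, read 3.84, 4.11 and 3.60 in wild type and 6.96, 3.30 and 4.71 in knockout. The groups overlapped, and the highest value came from the array with the highest floor. The local background around the Dppa3 spots was 25 to 29.5, so the transcript was not detectable in either group at this sensitivity.

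Dppa5a, the KH-domain member, was detected in every lung and did not differ between the groups beyond its spread. Its brighter probe (A_52_P362403) read 885, 513 and 680 in wild type and 462, 741 and 594 in knockout. The highest value was wild type 1 and the lowest knockout 1, and the groups overlapped. The difference was -0.24 on the log2 scale (SE 0.22, 95% interval -0.77 to 0.29; limma adjusted p = 0.535), so the interval still holds a fall of 0.77. The other probe (A_52_P18706) read 120, 69.2 and 78.5 in wild type and 49.6, 87.6 and 70.7 in knockout, with a difference of -0.40 (adjusted p = 0.360 in the fit over all probes). Both probes ordered the arrays alike at the extremes, with wild type 1 highest and knockout 1 lowest, and their log2 levels had a Pearson r of 0.96 over the 6 arrays, which share sample and slide. The RefSeq table lists the pseudogenes Dppa5b and Dppa5c, and whether the probes also bind their transcripts is not known here.

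Pou5f1, which encodes Oct4, was not well above background on any array. Its probe (A_51_P202340) read 3.88, 5.75 and 3.64 in wild type and 9.25, 8.54 and 8.66 in knockout. All 3 knockout values lay above the wild type values, as for 9.04% of dim probes, and the weaker scanner call was met on 5 of 6 arrays. The values were 0.21 to 0.61 times the detection limit of their array, so no fold is given. RefSeq lists 5 Pou5f1 pseudogenes, and whether this probe also binds their transcripts is not known here.

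Zfp42, the naive-state marker whose octamer is shown above, stood apart in its detection. It was the only one of the 8 genes well above background in all knockout lungs but not in all wild type lungs. Its probe (A_51_P413376) read 20.2, 6.69 and 11.4 in wild type and 39.3, 36.0 and 27.1 in knockout. Every knockout value was above every wild type value, and wild types 2 and 3 were below the detection limit of their arrays. Raw signals were 55.5, 44.0 and 48.5 in wild type and 80.5, 73.5 and 65.0 in knockout, over a local background of 21 to 32. Log2 levels averaged -7.12 ± 0.73 in wild type and -5.61 ± 0.31 in knockout (SD, n = 3 each), a fitted difference of 1.51 (SE 0.36, 95% interval 0.67 to 2.35) that missed the threshold (limma adjusted p = 0.0731). This size rests on wild type values of which 2 of 3 were below the limit, and no fold is given. With the wild type values below the limit raised to it, the difference was 0.83 (adjusted p = 0.0583), and with a background correction that compresses dim spots (normexp) it was 0.33. On the shared slide knockout 3 was 0.41 above wild type 1 and 1.87 above wild type 2, so the wild types differed from each other by more than the smaller of these gaps. Zfp42 was above the 99th percentile of negative control spots on 3 of the 6 arrays, wild type 1 and knockouts 2 and 3. On knockout 1 it was 0.84 times that percentile, so by this measure it was not detected in every knockout lung. RefSeq also lists a pseudogene of Zfp42, whose transcripts this probe might bind.

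Sall4, the zinc finger factor, was detected by 1 of its 2 probes. That probe (A_51_P145260) read 105, 96.2 and 90.9 in wild type and 107.1, 159 and 111.7 in knockout. The groups did not overlap, but knockouts 1 and 3 lay close to wild type 1 and only knockout 2 stood apart. The difference was 0.31 (SE 0.18, 95% interval -0.10 to 0.73; limma adjusted p = 0.299), and on the shared slide it was 0.07. The second probe (A_51_P349087) was below background on all arrays, at 3.58 to 7.21, so the detection of Sall4 rests on 1 probe.

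Lin28a, the let-7 antagonist, read 7.24, 3.76 and 3.52 in wild type and 6.19, 2.97 and 4.30 in knockout (probe A_52_P294305). The groups overlapped, with wild type 1 and knockout 1 highest, and no value reached the detection limit of its array.

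**Figure D2:**
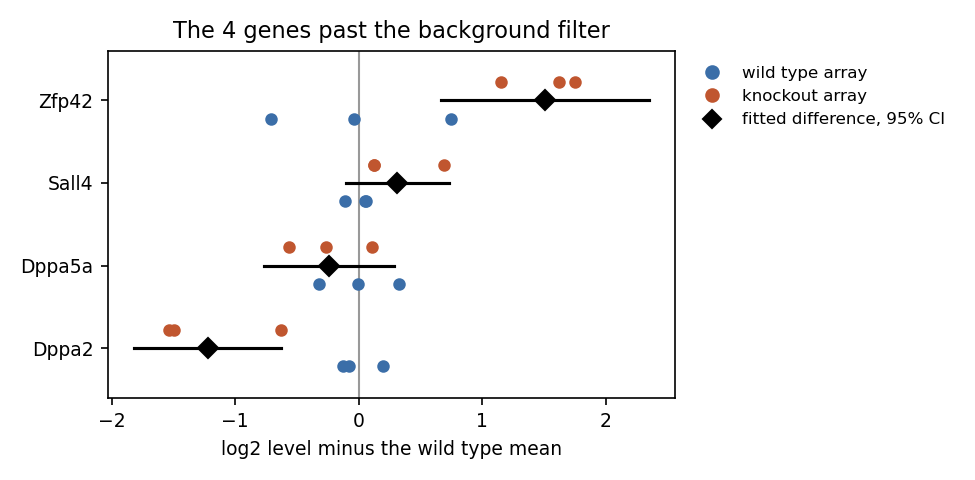
Log2 level of Zfp42, Sall4, Dppa5a and Dppa2 on each array minus the mean of the 3 wild type arrays, with the fitted difference (diamond) and its 95% confidence interval (bar). The interval of Dppa2 (-1.82 to -0.63) lies below 0, and those of Sall4 and Dppa5a include 0. Zfp42 (0.67 to 2.35) passed the filter only through the knockouts, in which it is high. Of its 3 wild type values 2 were below the detection limit, so its interval is no measure of a rise. None of the 4 passed the adjusted threshold.

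The wider pluripotency network was partly detectable in these lungs, and none of its tested genes was called changed. Of 24 genes listed for the core and naive network, 22 had a probe, 13 were well above background on all 6 arrays and 6 on none, among them Nr0b1, Gdf3 and Eras. Of the 14 tested, 0 rose and 0 fell by limma and 4 had an unadjusted p under 0.05, as did 5105 of all 19855 features. Their median difference was -0.21, with 11 of 14 below 0, where the median of all features was 0.01. Tdh, the threonine dehydrogenase of mouse embryonic stem cells, had levels of -6.71, -6.86 and -6.11 in wild type and -4.35, -5.01 and -5.47 in knockout. It resembled Zfp42 in being well above background on 1 wild type and 3 knockout arrays, and it too passed the filter only through the knockouts. Its fitted difference of 1.62 missed the threshold (adjusted p = 0.0572), was 1.40 with dim values raised to the limit and 0.50 with normexp, and passed without wild type 3 (adjusted p = 0.0274) or knockout 3 (0.0383). A term for the Y-linked signal, which leaves wild type 3 as the only wild type, gave 1.17. Blocking on the numbers in the names of the deposited files, which sets only knockout 3 against wild type 3, gave 0.64. Lefty1 and Nodal, an inhibitor and a ligand of the TGF-beta family, differed by -0.37 (adjusted p = 0.140) and -0.48 (adjusted p = 0.160). Fbxo15, an F-box protein and Oct4 target, differed by -0.50 (adjusted p = 0.167).

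Genes of the formative and primed states were mostly dim, with 2 of 5 detected on all arrays. Pou3f1, a POU factor, differed by -0.13 and the DNA methyltransferase gene Dnmt3b by less than 0.01, Otx2 was not detected, and 0 of the 2 tested changed by limma, with 0 at an unadjusted p under 0.05. Of the cleavage-stage genes downstream of Dppa2 and Dppa4, 4 of 7 had a probe and none was well above background on all 6 arrays. Zscan4c and Zfp352 were detected on none. Tcstv3, of the same stage, was detected on 3 wild type arrays and 1 knockout array, with log2 levels of -5.21, -4.26 and -5.31 in wild type and -4.50, -7.40 and -7.12 in knockout. It passed the filter only through the wild types. Knockout 1 lay among the wild types, knockouts 2 and 3 were below the limit of their arrays, and the test missed the threshold (limma adjusted p = 0.276). Tcstv1 went the other way at its brightest probe, detected on 0 wild type and 2 knockout arrays, and was not tested because it did not pass the filter. Its other probes were below background on all arrays and differed by 0.16 and -0.58.

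Germ cell genes held 2 of the 3 calls made in these lists. Of 14 with a probe 4 were well above background on all arrays, and 7 on none, among them the defining markers Dazl, Mael and Sycp1. Of the 7 tested 0 rose and 2, Tdrd1 and Syce1, were called lower, with a median difference of -0.10. Of all tested features 0.604% were called lower. An unadjusted p under 0.05 was found for 3 of the 7, and for 5105 of all 19855 features. Syce1 passed the filter only through the wild type group, in which it is high. Tdrd1, which encodes a Tudor-domain protein that binds piRNA pathway factors, stood at -2.44, -2.51 and -2.83 in wild type and -4.79, -4.68 and -4.71 in knockout, a fall of 2.13 (SE 0.13, limma adjusted p = 0.0022). The groups were far apart next to their spread, though Tdrd1's second probe was below background on all arrays. Syce1, of the synaptonemal complex, was above background in the 3 wild types and in 0 of the 3 knockouts. With each knockout value taken at the detection limit of its array it was 2.31-fold lower, a figure given without an interval. With normexp, which compresses dim spots, the difference was -0.80 on the log2 scale (limma adjusted p = 0.0353). The call (adjusted p = 0.00573) rests on knockout values below background, and in the fit with such values raised to the limit it was lost (adjusted p = 0.0652). It was also lost with slide as a block and with a term for the Y-linked signal. These fits rest on knockout 3 as the only knockout and on wild type 3 as the only wild type. The fitted differences, which rest on the same values below background, were -3.34 and -3.41 in those fits and -3.34 as reported. Asz1, another piRNA pathway protein, differed by 0.72 (adjusted p = 0.0879), and Stra8, the meiotic entry factor, by -0.34. The heart muscle markers moved with the group as these 2 genes did, and their part in the result was not tested.

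Genes of the lists drawn up around Lin28a, Sall4 and Dppa3 were almost all expressed and none was called changed. In the Lin28 and let-7 list, 10 of 11 genes were detected on all arrays and tested, 0 changed by limma with 0 at an unadjusted p under 0.05, and the median difference was 0.08. Lin28b was detected on none. The largest of its 4 named differences was that of Mycn, a let-7 target, at 0.30, followed by the uridylyltransferase gene Tut4 at 0.20, the RNA-binding protein gene Igf2bp2 at -0.18 and Igf2bp3 at 0.15. Among Sall family and NuRD genes, 11 of 13 were detected and tested, 0 changed by limma with 1 at an unadjusted p under 0.05, and the median was -0.07. The deacetylase Hdac2 differed by 0.30 (adjusted p = 0.191) and the remodeller Chd4 by -0.33 (adjusted p = 0.198), while 2 other Chd4 probes differed by 0.15 and 0.24. Mta2 differed by -0.22 at the brighter probe and by 0.16 at its other probe, and Gatad2a by -0.28 and -0.09. Sall1 and Sall3 were detected on none. Of the DNA methylation genes, 8 of 8 were detected and tested, 0 changed by limma with 2 at an unadjusted p under 0.05, and the median was 0.15. Over all features, 5105 of 19855 had an unadjusted p under 0.05, against which the counts of these lists are to be read. Tet2, a 5-methylcytosine dioxygenase, differed by 0.38 (adjusted p = 0.109) and at its other probe by 0.05, and Zfp57, which guards imprints, by 0.30 (adjusted p = 0.125). Tet3 differed by -0.29 and the corepressor Trim28 by 0.24.

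The oocyte KH-domain relatives of Dppa5a were in part expressed. Khdc3 and Ooep, of the subcortical maternal complex, were detected on all 6 arrays, and Khdc1a and Khdc1b on none. Khdc3 differed by -0.53 (limma adjusted p = 0.120) and Ooep by -0.51 (adjusted p = 0.182), neither past the threshold. Both had an unadjusted p under 0.05, as did 5105 of all 19855 features.

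**Figure D3:**
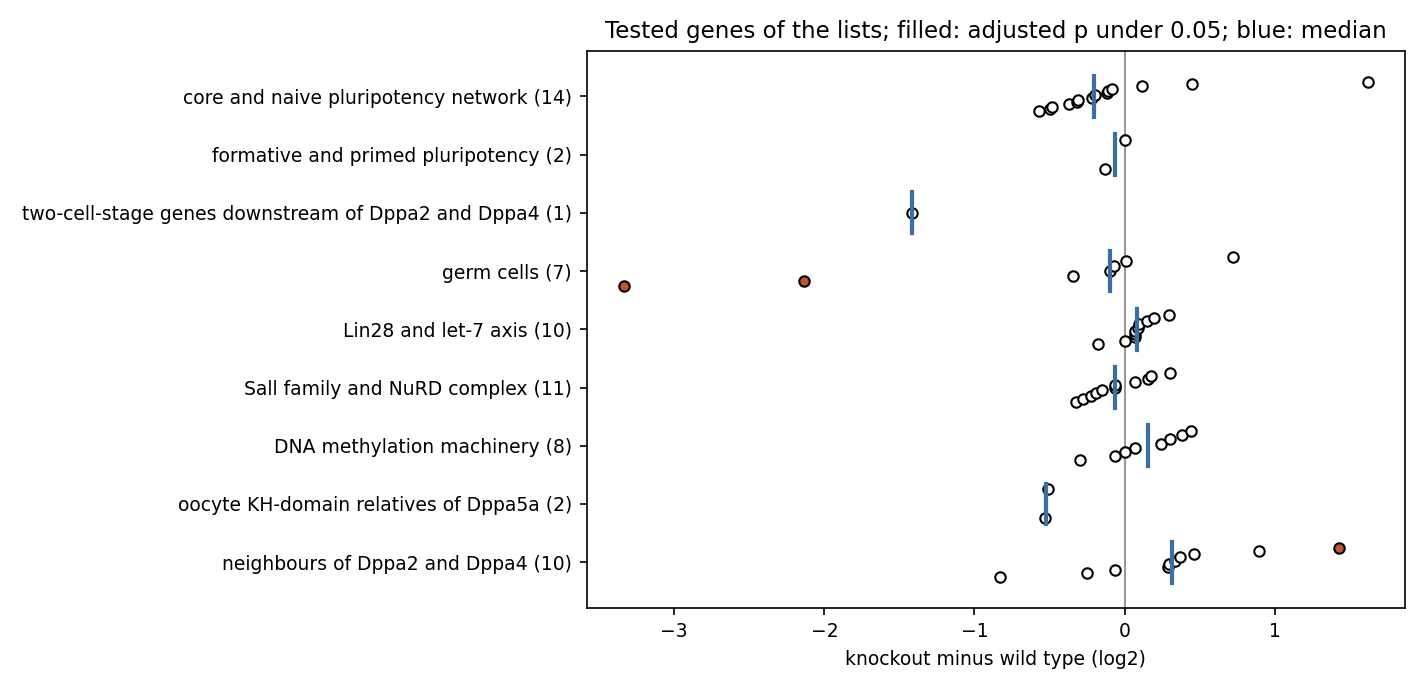
Fitted difference (knockout minus wild type, log2) of every tested gene in each list, 1 circle per gene, filled where the limma adjusted p was under 0.05; blue bars are list medians and the number tested is in parentheses. Filled circles are Tdrd1 and Syce1 among germ cell genes and Tagln3 among the neighbours; the Syce1 value is a fitted one with all knockout arrays below background.

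Around Dppa2 and Dppa4 on chromosome 16, the 10 protein-coding genes on either side were examined in the gene order of the RefSeq table. Of these 20 genes 16 had a probe and 10 were tested, of which 1 rose and 0 fell by limma. Among the 10, 6 had an unadjusted p under 0.05, as did 5105 of all 19855 features. Groups did not overlap for 5 of the 10, and for 31.3% of all features. The median difference was 0.31, against 0.01 over all features. Above 0 were 7 of the 10 and 51.0% of all features. On the near sides, Nectin3, a cell adhesion protein, differed by 0.29 (limma adjusted p = 0.152) and the germ cell gene Morc1 by 0.37 (adjusted p = 0.356), Trat1 was not detected, and Gm52257 had no probe. Tagln3, a calponin-related protein known from neurons, had levels of -5.60, -5.84 and -5.29 in wild type and -3.97, -4.59 and -3.89 in knockout. All 3 knockouts were above all wild types, a rise of 1.43 (SE 0.22, adjusted p = 0.0411), and its second probe differed by 1.47. That call was narrow: 8 of 14 alternative fits lost it, among them quantile normalization (1.28, adjusted p = 0.0566), and so did leaving out wild type 1, wild type 2, knockout 1 or knockout 3 (adjusted p between 0.0550 and 0.164). Cip2a, an inhibitor of protein phosphatase activity, differed by 0.89 (adjusted p = 0.156), Dzip3, a ubiquitin ligase, by 0.46 (adjusted p = 0.110) and Ift57, of intraflagellar transport, by 0.34 (adjusted p = 0.145).

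**Figure D4:**
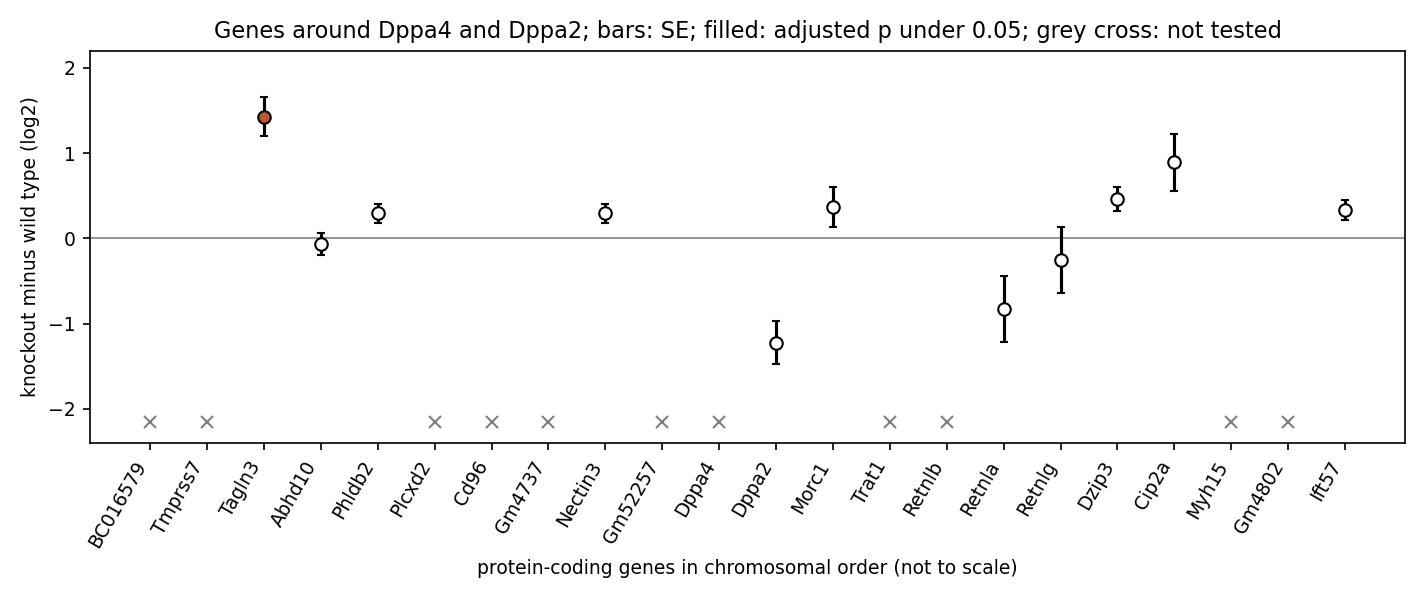
Difference (knockout minus wild type, log2, with SE) for the 10 protein-coding genes on either side of Dppa4 and Dppa2, in chromosomal order and not to scale; filled circles passed the limma adjusted threshold, and grey crosses mark genes with no test. Dppa2 is the lowest point at -1.22 and Tagln3 the highest at 1.43, with 7 of the 10 tested neighbours above 0, against 51.0% of all features.

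For each of the 3 genes detected on every array, the tested genes with the most similar profile were found by Pearson r of log2 levels over the 6 arrays, a description over few points that share group and slide. For Dppa2 these were Car4, a carbonic anhydrase of lung capillaries (r = 0.999), Cblif (0.995), Apobr (0.993), Tmed6 (0.992) and Csta2 (0.991), and 624 of 13921 genes had an r above 0.9. For Sall4 they were Zer1 (0.997), Gtf3c2 (0.995), Cyp2d10 (0.994), Pfas (0.991) and Mpp5 (0.987), with 167 genes above 0.9. For Dppa5a they were Tprg (0.985), Slc44a3 (0.961), Sec22c (0.960), Selenok (0.957) and Tm2d2 (0.955), with 36 genes above 0.9. Car4 itself differed by -0.79 between knockout and wild type on the log2 scale and missed the threshold (limma adjusted p = 0.066).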

How the data were processed

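RNA of 6 lungs was hybridised with Cy3 to 1-colour Agilent whole mouse genome arrays, 1 per embryo. Per the file headers, Agilent Feature Extraction 10.7.3.1 made the deposited intensity values, which are background-subtracted and detrended within an array but not scaled between arrays. The authors also deposited log2 values, made with GeneSpring GX 11 per the design text; set against the scanner files they had r of 0.992 to 0.997 with quantile-normalized log2 intensities and were relative to the wild type median (column medians 0 in wild type and 0.0108, -0.00698 and -0.000844 in knockouts 1 to 3). Between 77 and 110 spots per array with an outlier flag were left out. Accessions were named through a RefSeq table on GRCm38.p6 (26682 of 41174 probes), whose build differs from that of the array design.

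From each log2 intensity the 75th percentile of its array (1520.1 to 1686.1 before the log) was subtracted. The filter kept 26656 probes, those well above background on the 3 arrays of either group, with 1 probe per gene, the brightest by mean over 6 arrays. The test was limma's lmFit and eBayes (version 3.58.1, R 4.3.3; two-sided, Benjamini-Hochberg), after the scripts had been tested on simulated data. The number of arrays, 3 per group, limits precision. Alternatives covered scaling, background, filter, slide, replicate number, Y-linked signal, variance trend and leaving out each array. Normexp used the median signal, as the files hold no mean signal, with 13 spots of very bright local background (4 on wild type 1, 9 on knockout 3) set to the array median.

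The genes and lists were chosen with earlier results of these data known. Named genes are all 10 of the set; of each list those called and the 4 of smallest p; the called and nearest neighbours; the 5 most similar genes; and the markers. Retired or renamed accessions may leave probes unnamed.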

Additional observations from a re-analysis of the deposited data

How the results depend on the processing

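The number of genes called changed, 261 as reported, depended on the processing: it was 28 with no filter on dim probes, 96 with probes well above background on at least 1 array, 23 with slide as a block, 17 with a term for Y-linked signal and 0 with the number in the file names as a block (limma; 1066 features had an unadjusted p under 0.05), an alternative chosen after seeing the data. Leaving out 1 array gave 33 to 1970 genes (33 without wild type 1, 54 without wild type 2, 1970 without wild type 3, 58, 79 and 443 without knockouts 1, 2 and 3). Samples sharing a replicate number did not deviate together (r of -0.02, 0.04 and 0.03), but the labels do not say what the numbers mark. With a replicate block 56 genes were called. Of the calls 54.0% were higher in knockout as reported, 29.6% with quantile normalization, 28.2% with median scaling, which moved the median of all genes to -0.12, and 30.1% with the authors' log2 values.

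Dppa2 kept its direction and did not pass the threshold under 14 of 14 alternatives (-1.36 to -0.51) and was -1.52 to -1.06 without 1 array, passing without wild type 3 or knockout 3. Zfp42 did so under 13 of 13 (0.33 to 1.55) and in each fit without 1 array (1.16 to 1.88); with only probes above background on all 6 arrays it could not be tested. Dppa5a (-0.37 to -0.23) and Sall4 (0.07 to 0.42) stayed uncalled throughout. The genes detected on all arrays numbered 3, and 4 with the weaker detection call or on at least 1 array. List genes called numbered 3 as reported and 2 to 7 without 1 array, 7 without wild type 3. They were fewer with slide, the Y-linked signal or the file name number as a term. The cause of these shifts was not tested. Tdrd1 lost its call in 1 of 14 alternatives, the file name number (-1.88, knockout 3 against wild type 3 only), and Syce1 in 4 of 13. Tnnt2 lost its call in 5 of 14, Myl7 in 4, Myl4 in 3 and Nkx2-5 in 2, slide as a block among them for each.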

Other observations

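Ooep, an oocyte KH-domain gene, was singled out after its values were seen, because its profile over the arrays looked like that of Dppa5a. Its log2 levels were -0.86, -1.41 and -1.16 in wild types 1, 2 and 3 and -1.998, -1.35 and -1.62 in knockouts 1, 2 and 3, while those of Dppa5a were -0.92, -1.57 and -1.25 and -1.81, -1.13 and -1.50. For both genes wild type 1 was highest and knockout 1 lowest, and the Pearson r between them was 0.92 over 6 arrays.

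In the authors' deposited table of log2 values, relative to the wild type median, Dppa2 stood at -1.64, -1.56 and -0.66 in knockouts 1, 2 and 3, against 0.29, 0.00 and -0.06 in wild types 1, 2 and 3. Zfp42 in the authors' deposited table stood at 1.45, 1.45 and 0.97 in knockout and at 0.71, -0.88 and 0.00 in wild type, so wild type 1 lay near knockout 3.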
